A study of Rattus norvegicus with 24 samples.

Results

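The platelet-derived growth factor (PDGF) family of the rat was followed across microvessels and whole tissue of the retina and the brain. The members were chosen by gene symbol: the 4 ligand genes Pdgfa, Pdgfb, Pdgfc and Pdgfd and the 2 receptor genes Pdgfra and Pdgfrb, 6 of the 18166 genes tested. Each gene was read by 1 probe set ("cluster") of an Affymetrix Rat Gene 2.0 ST array, and all 6 had a value on every array. The arrays formed 4 groups of 6: retinal microvessels (RMVs), whole retinal tissue (RT), brain microvessels (BMVs) and whole brain tissue (BT). All samples came from male Wistar rats aged 12 weeks, 6 animals in all, with no treatment or transgene named for any group, and the labels name the 6 samples of a group as biological replicates. Microvessels were prepared from frozen sections by homogenization, a dextran gradient and capture on a 60 µm nylon mesh, so each preparation is a vessel-enriched mixture and not a sorted cell type. Meninges, surface vessels, choroid plexus and white matter had been taken off the brains beforehand, and 1 ng of RNA was amplified for each array.

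PDGFs are dimeric growth factors that act on receptor tyrosine kinases of class III. PDGF-B, made by endothelial cells and held near the vessel by heparan sulfate, binds PDGF receptor β on pericytes and smooth muscle cells, and in mice this signal recruits pericytes to the capillaries of brain and retina. PDGF-A acts on PDGF receptor α, the receptor of oligodendrocyte precursor cells, of fibroblasts and, in the rodent retina, of migrating astrocytes. PDGF-C and PDGF-D are secreted in a latent form and must be cut by extracellular proteases, PDGF-C to act on receptor α and PDGF-D chiefly on receptor β. In people, variants of PDGFB and PDGFRB are among the known causes of primary familial brain calcification.

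The sequences just upstream of 3 of the genes are shown: Pdgfb, the endothelial ligand enriched in both microvessel groups, and Pdgfd and Pdgfra, for which the retina and the brain differed. They are RefSeq sequences of the build GRCr8, from the positions chr7:113438344-113438593 (minus strand), chr8:11773258-11773334 (plus strand) and chr14:33408605-33408766 (minus strand), written 5′ to 3′ and ending at the base before the outermost annotated start of the gene. Capitals mark a match to a GC box or a CCAAT box on either strand.
Pdgfb: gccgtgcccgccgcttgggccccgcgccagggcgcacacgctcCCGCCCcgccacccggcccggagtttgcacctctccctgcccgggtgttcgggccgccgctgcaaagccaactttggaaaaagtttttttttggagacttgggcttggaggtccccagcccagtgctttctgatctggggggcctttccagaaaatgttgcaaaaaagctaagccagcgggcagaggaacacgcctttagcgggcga
Pdgfd: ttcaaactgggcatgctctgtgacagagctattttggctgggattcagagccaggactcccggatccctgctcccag
Pdgfra: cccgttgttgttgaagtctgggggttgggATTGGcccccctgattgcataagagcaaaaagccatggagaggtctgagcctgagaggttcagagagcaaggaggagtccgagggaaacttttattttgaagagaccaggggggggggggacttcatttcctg
In the 250 bases before the start site, 5 of the 6 members had a sequence in the table used, and 5 short motifs were searched on both strands. The GC box GGGCGG was present once each for Pdgfa, Pdgfb and Pdgfd and in 30.5% of all 33469 promoters of that table. The match of Pdgfb stands in the stretch above on the opposite strand, and that of Pdgfd lies outside the printed stretch. The CCAAT box was found for Pdgfra, on the opposite strand, and in 34% of promoters. The TATA box TATAAA matched none of the 5 genes (12.9% of promoters). The RBPJ core TGGGAA was found for Pdgfc (22.1% of promoters). The TCF/LEF core CTTTGA was found for Pdgfa, Pdgfc and Pdgfra (13.9% of promoters), and that of Pdgfra lies outside the printed stretch. For Pdgfd and Pdgfra the printed stretch covers only part of the 250 bases searched. The rest of those bases lies inside the outermost annotated start of the gene. These matches are descriptions of letters only.

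The preparations were checked against markers of the cell types they could hold. All 10 measured endothelial markers rose in RMVs over RT (median log2 fold change 4.06) and in BMVs over BT (4.10), as did 12 of 12 pericyte markers (3.56 and 3.48) and 5 of 5 smooth muscle markers (3.14 and 4.35). Neuronal markers fell in BMVs, 9 of 9 (median -2.72), but in RMVs 3 of 9 fell (-0.78). Photoreceptor markers stayed close to the level of the retina: none of 9 differed by 2-fold in RMVs, and their mean log2 signal was between 12.1 and 12.4 on the RMV arrays against 12.4 to 12.5 on the RT arrays. Smaller differences with an adjusted p under 0.05 (limma) were seen for Pde6a (-0.50), Pde6b (-0.55), Rom1 (-0.44) and Nrl (0.49). Pairwise correlations of arrays within a group were 0.988 to 0.994. The median signal of all clusters differed between groups, from 6.76 to 6.83 on RMV arrays, 6.10 to 6.22 on RT, 6.48 to 6.55 on BMV and 5.81 to 5.95 on BT, and the median gene had a log2 difference of 0.33 for RMVs minus RT and 0.30 for BMVs minus BT. The marker counts are on the deposited scale only, where 0.947% of all genes were called lower in RMVs and 10.5% in BMVs. Calls of the 6 genes that change when this shift is removed are given with their values. Pigment epithelium markers, 6 genes, stood apart on RT replicate 5 (mean log2 signal 9.02 against 6.74 to 7.62 on the other RT arrays) and RMV replicate 5 (8.11 against 6.79 to 7.27), and the 4 RMV calls below held without either array.

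**Figure D1:**
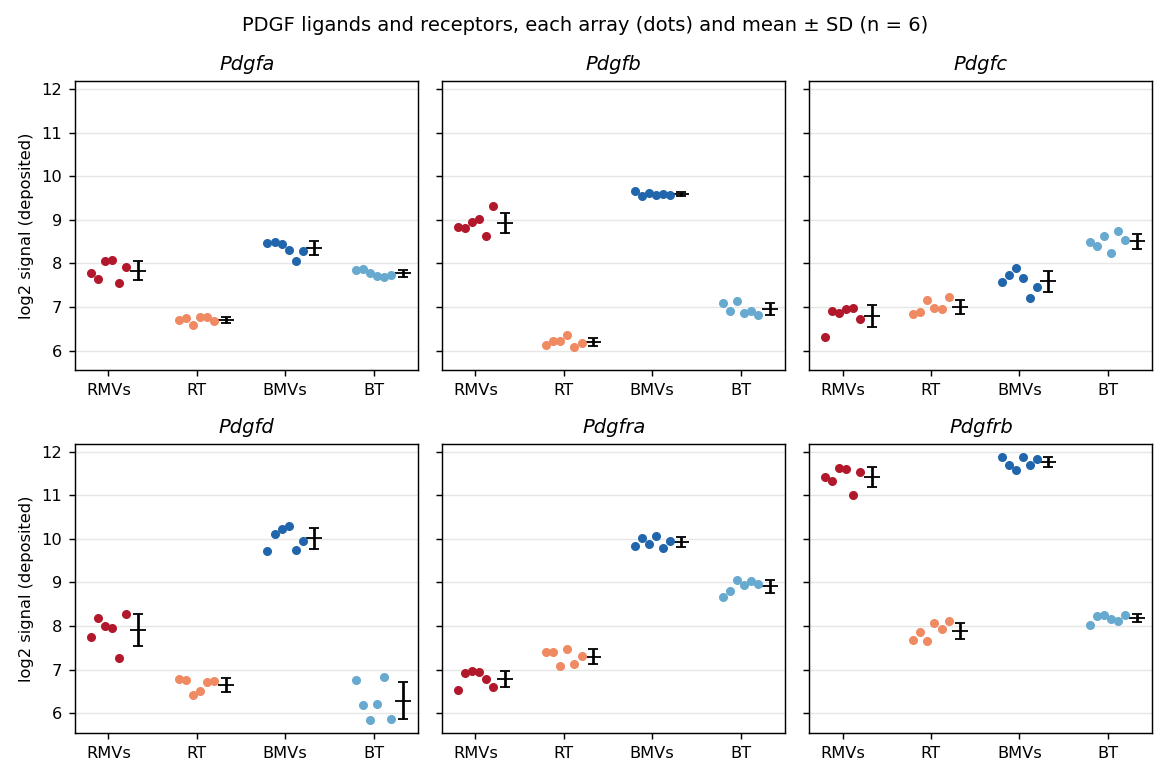
Log2 signal (vertical axis) of each of the 6 genes in the 4 groups (horizontal axis), with a dot for each array and the mean ± SD of 6 arrays beside the dots. Pdgfrb and Pdgfb separate microvessels from tissue in both organs, Pdgfd is highest in BMVs (9.72 to 10.3), and Pdgfra is high in BMVs and BT and low in RMVs and RT.

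Of the 6 genes, 4 rose in RMVs over RT, by at least 2-fold with an adjusted p under 0.05: Pdgfa, Pdgfb, Pdgfd and Pdgfrb. The same rule called 10.3% of all genes higher and 0.947% lower, and no member was lower by it. In the brain also 4 rose in BMVs over BT, here Pdgfb, Pdgfd, Pdgfra and Pdgfrb, against 16.3% of all genes higher. No member fell in BMVs on the deposited scale, against 10.5% of all genes lower. After quantile normalization and after median centring, Pdgfc was called lower in BMVs and Pdgfra was no longer called higher, where 13.5% and 21.3% of all genes were lower. In RMVs both scalings took the calls from Pdgfa and Pdgfd and called Pdgfra lower. The median log2 fold change of the 6 genes was 1.18 in RMVs and 1.82 in BMVs, beside 0.33 and 0.30 over all genes. Without the fold threshold, 5 of 6 genes differed between RMVs and RT (76.4% of all genes) and 6 of 6 between BMVs and BT (82.4%). The arrays of microvessels and tissue did not overlap for 5 members in the retina (52.8% of all genes) and for 6 in the brain (62.8%). In mixtures of this kind, fewer cells of a type and less RNA per cell cannot be told apart.

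Pdgfb, the ligand with which endothelial cells recruit pericytes, was strongly enriched in both organs. Its log2 signal on the RMV arrays ran from 8.62 over a median of 8.89 to 9.32, and on the RT arrays from 6.09 over 6.19 to 6.36. All 6 RMV arrays therefore lay above all 6 RT arrays, a 6.61-fold difference (log2 2.73, standard error 0.0842, adjusted p = 4.78e-20, limma, n = 6). In the brain, the BMV arrays ran from 9.55 over 9.58 to 9.66, the narrowest spread of any member in microvessels (SD 0.04), and the BT arrays from 6.82 over 6.91 to 7.14. The BMV arrays again lay apart from the tissue, 6.21-fold higher (log2 2.64, adjusted p = 2.32e-20). The enrichment in RMVs minus that in BMVs was 0.09 (95% interval -0.15 to 0.33, adjusted p = 0.534). The level itself was 1.59-fold higher in BMVs than in RMVs (adjusted p = 1.14e-07) and 1.69-fold higher in BT than in RT (adjusted p = 8.24e-09), in each case with no overlap between the arrays.

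Pdgfd encodes the other ligand of receptor β, and its enrichment was far larger in the brain. The BMV arrays had log2 signals from 9.72 over 10.03 to 10.3, and the BT arrays from 5.85 over 6.20 to 6.83. This 13.2-fold difference (log2 3.72, standard error 0.166, adjusted p = 2.79e-17, limma, n = 6) ranked 124 among the 18166 genes by increase. In the retina, the RMV arrays ran from 7.26 over 7.97 to 8.28 and the RT arrays from 6.42 over 6.74 to 6.78. The RMV arrays lay above the RT arrays without overlap, but the difference was 2.37-fold (log2 1.25, adjusted p = 2.37e-07). It was 0.75 after quantile normalization and 0.60 after centring each array on its median, both under 2-fold. The enrichment in RMVs minus that in BMVs gave a log2 value of -2.48 (standard error 0.235, adjusted p = 9.34e-10). Between the microvessels alone, Pdgfd was 4.30-fold higher in BMVs than in RMVs, with no overlap (adjusted p = 2.06e-11), while RT and BT overlapped and differed by 0.37 (adjusted p = 0.0484, and 0.134 at most with a single array left out). That difference was 0.17 after quantile normalization (adjusted p = 0.393) and 0.11 after median centring (adjusted p = 0.577).

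Pdgfrb, the receptor of pericytes and smooth muscle cells, was the most enriched member in the retina. Its log2 signal on the RMV arrays ran from 11.0 over 11.5 to 11.6, and on the RT arrays from 7.67 over 7.90 to 8.12. The arrays stood apart by 11.5-fold (log2 3.52, adjusted p = 2.82e-21), and the gene ranked 83 of 18166 by its increase in RMVs. The BMV arrays ran from 11.6 over 11.8 to 11.9 and the BT arrays from 8.02 over 8.20 to 8.26, an 11.97-fold difference without overlap (adjusted p = 6.43e-22). Its enrichment differed between retina and brain by -0.06 (95% interval -0.33 to 0.22, adjusted p = 0.730). The 12 pericyte markers, a list without Pdgfrb, had medians of 3.56 and 3.48 in the same comparisons, and none of the 12 differed between the organs in its enrichment by 2-fold. None of the 10 endothelial markers did either (medians 4.06 and 4.10). Of 5 smooth muscle markers (3.14 and 4.35), 2 were enriched less in the retina by 2-fold. Enrichment of this size was thus not particular to pericyte markers. The level of Pdgfrb was 1.27-fold higher in BMVs than in RMVs (adjusted p = 0.00249) with overlapping arrays, and after quantile normalization the difference was 0.13 (adjusted p = 0.248). BT exceeded RT by 0.28 (adjusted p = 0.00927), also with overlap, and by 0.19 after quantile normalization (adjusted p = 0.0805).

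The RMV preparations varied together in several of these genes. Replicate 5 of the RMVs was the lowest of its group for Pdgfa, Pdgfb, Pdgfd and Pdgfrb. The same array had the lowest mean of the 10 endothelial markers, 10.6 against 10.8 to 11.2 on the other RMV arrays, and of the 12 pericyte markers, 10.2 against 10.6 to 10.8. It also had the highest mean of the RMV arrays for photoreceptor markers (12.45 against 12.09 to 12.41), neuronal markers (9.94 against 9.61 to 9.93) and, as given above, pigment epithelium markers. Without that array the RMV enrichment was 1.18 for Pdgfa, 2.79 for Pdgfb, 1.38 for Pdgfd and 3.61 for Pdgfrb. Without RT replicate 5 those values were 1.13, 2.70, 1.26 and 3.53. The part of vessel content or of retinal cells in the spread among RMV arrays was not tested.

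Pdgfra encodes receptor α, and its levels in retina and brain lay further apart than those of any other member. The log2 signals of the BMV arrays ran from 9.78 over 9.90 to 10.1, and those of the BT arrays from 8.67 over 8.95 to 9.06. BMVs stood above BT without overlap by 2.01-fold (log2 1.01, standard error 0.0892, adjusted p = 7.15e-11, limma, n = 6). That value lies at the 2-fold threshold: it was 0.95 after quantile normalization and 0.40 after median centring, and between 0.96 and 0.99 without BMV replicate 2, BMV replicate 4, BT replicate 1 or BT replicate 2. In the retina the order was the opposite, with RMV arrays from 6.53 over 6.85 to 6.97 and RT arrays from 7.08 over 7.36 to 7.47. Every RMV array lay below every RT array (log2 -0.51, adjusted p = 1.40e-05), short of 2-fold on the deposited scale. The difference was -1.17 after quantile normalization and -1.15 after median centring, past 2-fold in both. The enrichment in RMVs minus that in BMVs gave a log2 value of -1.52 (standard error 0.126, adjusted p = 7.85e-11). Between microvessels, Pdgfra was 8.74-fold higher in BMVs than in RMVs (log2 difference RMVs minus BMVs -3.13, adjusted p = 5.35e-21), and 0.165% of all genes had a lower value in that comparison. BT exceeded RT 3.06-fold (adjusted p = 5.66e-15).

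Receptor α marks several cell types, and their markers were read beside it. Of the 9 fibroblast markers, 9 rose in BMVs (median 3.13) and 6 in RMVs (1.496), and 7 of 9 were lower in RMVs than in BMVs, led by the matrix proteoglycan genes Dcn (-6.75) and Lum (-6.16). The mean log2 signal of this list was 10.1 to 10.4 on the BMV arrays, 6.94 to 7.31 on the RMV arrays, 5.60 to 6.00 on the RT arrays and 6.87 to 7.25 on the BT arrays. Its enrichment differed between the organs for 6 of 9 genes, all lower in the retina. Of 9 oligodendrocyte precursor markers, none rose or fell in RMVs (median 0.62), and in BMVs none rose while 2 fell (-0.67). Those were Gpr17 (-1.37), a receptor of committed precursors, and Lhfpl3 (-1.49). Their mean signal was 7.84 to 8.04 on the BT arrays, 7.18 to 7.41 on the BMV arrays, 6.83 to 7.03 on the RMV arrays and 6.52 to 6.75 on the RT arrays. Of the 9, 6 were lower in RT than in BT, among them the lineage transcription factors Olig2 (-1.78) and Sox10 (-2.48), and 1 was higher, C1ql1 (2.17), where 6.29% of all genes were higher. Between the microvessels, 4 of the 9 precursor markers were also lower in RMVs than in BMVs (list median -0.79). These were Gpr17 (-2.397), Vcan (-1.73), Sox10 (-1.31) and Olig2 (-1.02). Higher in RMVs were 2 of the 9, C1ql1 (2.14) and Lhfpl3 (1.198). BMVs combined a higher Pdgfra signal than BT with higher fibroblast and lower precursor marker means. The part of either cell type in the Pdgfra signal was not tested.

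Astrocyte and macrophage markers also differed between the groups. Of 7 astrocyte markers, 2 fell in RMVs and 3 in BMVs, and their mean was 8.34 to 8.58 on the RMV arrays, 8.79 to 9.16 on RT, 9.85 to 10.3 on BMV and 11.1 to 11.2 on BT. All 5 perivascular macrophage markers rose in BMVs (median 3.23), among them the mannose receptor gene Mrc1 (3.44), and 1 of 5 rose in RMVs, the scavenger receptor gene Stab1 (2.45). Among platelet markers, which matter here because platelets carry PDGF, 2 of 5 rose in RMVs and 1 in BMVs while 1 fell there. Over all genes, 10.3% rose in RMVs, and in BMVs 16.3% rose and 10.5% fell. Pf4, a platelet chemokine, was the one that rose in both (2.61 and 2.41). Gp9 rose in RMVs (1.25), and Gp5 fell in BMVs (-1.14). Between the microvessels Pf4 was lower in RMVs (-1.37), against a platelet list median of 0.56. The list means for platelets were 6.87 to 7.08 on the RMV arrays, 5.85 to 6.13 on RT, 6.66 to 6.86 on BMV and 5.96 to 6.18 on BT.

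**Figure D2:**
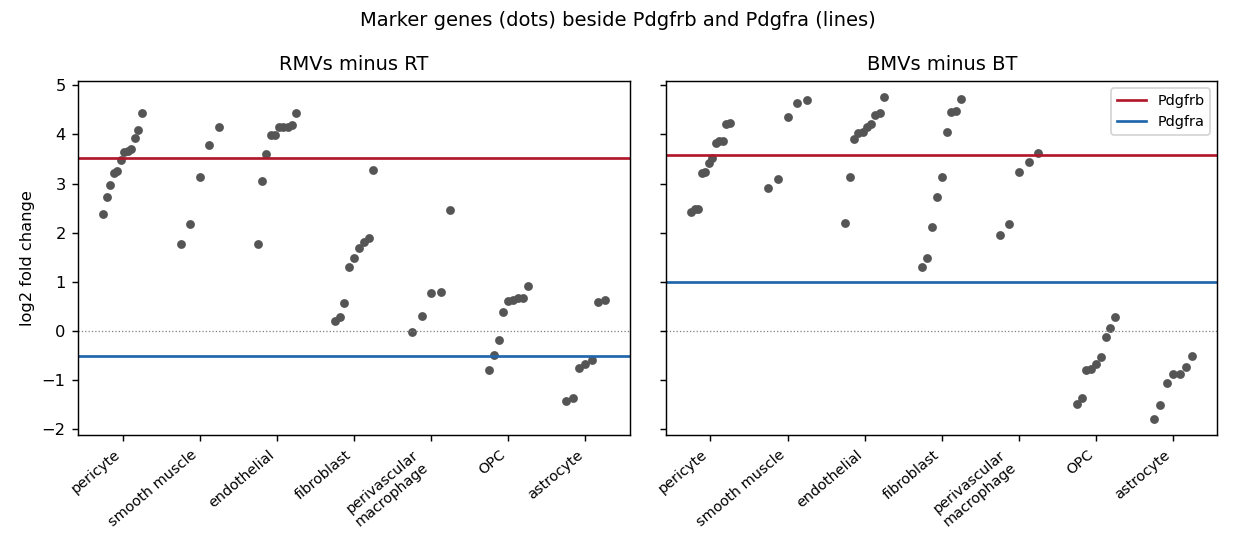
Log2 fold change (vertical axis) of the marker genes of 7 cell types (dots, by list; OPC, oligodendrocyte precursor cell) in RMVs minus RT (left) and BMVs minus BT (right), with horizontal lines at the values of Pdgfrb and Pdgfra. The Pdgfrb line (3.52 and 3.58) runs through the pericyte, smooth muscle and endothelial markers in both panels. In BMVs it also runs through the fibroblast and perivascular macrophage markers. The Pdgfra line (-0.51 and 1.01) lies below all fibroblast markers in both panels and, in BMVs, above all precursor markers.

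Pdgfa, the main ligand of receptor α, was moderately higher in microvessels. The RMV arrays had log2 signals from 7.54 over 7.84 to 8.07 and the RT arrays from 6.59 over 6.72 to 6.78, without overlap (2.18-fold, adjusted p = 7.26e-12). After quantile normalization the difference was 0.61, and after median centring 0.48, both under 2-fold. The BMV arrays ran from 8.06 over 8.38 to 8.48 and the BT arrays from 7.68 over 7.75 to 7.88, apart by 1.49-fold (adjusted p = 7.30e-07). This brain difference did not hold relative to the array medians, where it was -0.036 (adjusted p = 0.723). The enrichment was higher in the retina by 0.55 (standard error 0.119, adjusted p = 0.000303). BT exceeded RT 2.08-fold with no overlap (adjusted p = 1.27e-11), and BMVs exceeded RMVs 1.42-fold with the highest RMV array just above the lowest BMV array (adjusted p = 7.58e-06).

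Pdgfc, the ligand cleaved by tissue plasminogen activator, was the member without enrichment in either organ. The BT arrays had the highest log2 signals, from 8.25 over 8.52 to 8.75, and the BMV arrays ran from 7.21 over 7.62 to 7.89. All BMV arrays thus lay below all BT arrays (log2 -0.92, adjusted p = 3.89e-08), at 0.529 of the tissue signal and just short of 2-fold on the deposited scale. The difference passed 2-fold after quantile normalization (-1.13, adjusted p = 1.20e-09) and after median centring (-1.53, adjusted p = 1.17e-12). In the retina, the RMV arrays ran from 6.31 over 6.89 to 6.97 and the RT arrays from 6.84 over 6.96 to 7.24. These groups overlapped, and their difference of -0.22 did not pass the test (95% interval -0.45 to 0.02, adjusted p = 0.0834). After quantile normalization it was -0.88 (adjusted p = 2.21e-07). The enrichment was 0.70 higher in the retina (standard error 0.160, adjusted p = 0.000509), but 0.26 after quantile normalization (adjusted p = 0.183). BT exceeded RT 2.83-fold and BMVs exceeded RMVs 1.74-fold, both without overlap. The RMVs minus BMVs value was -0.80, and -1.10 under either scaling, past 2-fold.

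**Figure D3:**
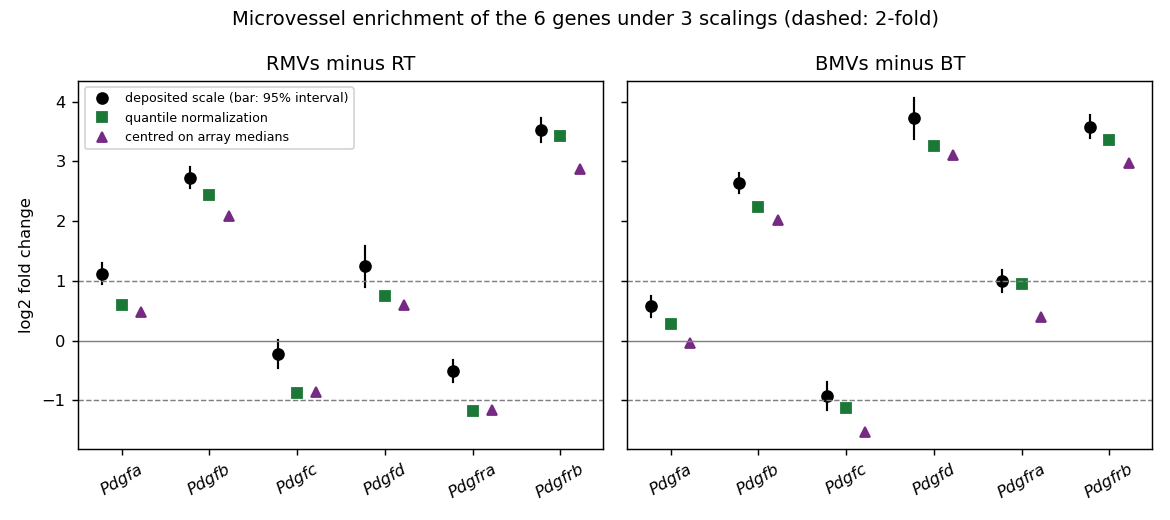
Log2 fold change (vertical axis) of the 6 genes (horizontal axis) in RMVs minus RT and BMVs minus BT on the deposited scale (dots with 95% interval), after quantile normalization (squares) and after centring on array medians (triangles), with 2-fold as dashed lines. Pdgfb and Pdgfrb stay above 2-fold in all 3 scalings in both organs, while Pdgfa, Pdgfc, Pdgfd in the retina and Pdgfra lie near a threshold and cross it, or come close, with the scaling.

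Between the microvessels themselves, all 6 genes were lower in RMVs than in BMVs with an adjusted p under 0.05 (68.4% of all genes differed at that level in either direction), and the median of the 6 was -0.74 beside 0.08 over all genes. Pdgfd and Pdgfra passed 2-fold as well, 2 of 6 where 5.25% of all genes were lower. The arrays did not overlap for 4 of the 6 (47% of all genes), all but Pdgfa and Pdgfrb. Between the whole tissues, 3 of 6 were lower in RT than in BT by 2-fold, Pdgfa, Pdgfc and Pdgfra, against 11.1% of all genes. All 6 differed without the fold threshold (71.3% of all genes), Pdgfd in the other direction and with its adjusted p near the threshold. The arrays of RT and BT did not overlap for 4 of 6 (48.8% of all genes). For the difference of enrichment, 2 of 6 were lower in the retina by 2-fold, Pdgfd and Pdgfra (5.15% of all genes), and 4 of 6 differed without a fold threshold (59.9%). These comparisons share arrays with each other, since each group of 6 enters several of them.

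Ordered by level, BMVs came out highest for 5 of the 6 genes and BT for Pdgfc. Pdgfb and Pdgfrb had the order BMVs, RMVs, BT, RT, and Pdgfd the order BMVs, RMVs, RT, BT, so that for these 3 the vessels came ahead of the tissues. Pdgfra went BMVs, BT, RT, RMVs, ordered by organ and not by vessel content. For Pdgfa, RMVs and BT held neighbouring places and did not differ (0.06, adjusted p = 0.482, where 86.5% of all genes differed between those groups). For Pdgfc, RT and RMVs at the low end did not differ on the deposited scale. RT exceeded RMVs by 0.88 after quantile normalization (adjusted p = 2.21e-07) and by 0.86 after median centring (adjusted p = 1.55e-07). On the deposited scale, BMVs exceeded RT for Pdgfc by 0.58 (adjusted p = 4.70e-05, where 76.2% of all genes differed). That call was lost after quantile normalization (0.22, adjusted p = 0.0849) and after median centring (0.24, adjusted p = 0.0632). In all, 16 of 18 neighbouring pairs had an adjusted p under 0.05 on the deposited scale, 14 after quantile normalization and 15 after median centring. Over all genes on the deposited scale, from 68.4% (RMVs and BMVs) to 86.5% (RMVs and BT) differed at that level. On the deposited scale the arrays of 11 of the 18 pairs did not overlap. Over all genes, that share was 47% for RMVs and BMVs, 48.8% for RT and BT, 52.8% for RMVs and RT and 62.8% for BMVs and BT. It was not computed for RMVs with BT or for BMVs with RT. After quantile normalization Pdgfa had BT ahead of RMVs by 0.43 (adjusted p = 0.000252), and after median centring BT and BMVs headed that gene with 0.036 between them (adjusted p = 0.723).

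Of 12 measured genes that bind or process PDGFs, 7 rose in RMVs (median 1.02) and 8 in BMVs (1.77), and none fell, where 10.3% and 16.3% of all genes rose and the medians were 0.33 and 0.30. Plat, tissue plasminogen activator, which cuts latent PDGF-C, rose by 2.88 in RMVs and 3.17 in BMVs on the log2 scale. Nrp1, a co-receptor of several growth factors, rose by 2.82 and 2.25, and Cspg4, the NG2 proteoglycan of pericytes and precursors that binds PDGF-A, by 2.73 and 2.42. Pdgfrl, a receptor-like gene, rose by 1.79 and 2.29. Furin and Pcsk7, convertases that cut growth factor precursors, rose by 1.03 and 1.00 in RMVs and by 2.11 in BMVs each. Plau, the urokinase that cuts PDGF-D, rose in BMVs (1.43) and had 0.52 in RMVs. A2m, a plasma carrier of PDGF, went against the list with -0.70 in RMVs and 0.02 in BMVs, neither past 2-fold.

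Genes downstream of the receptors had medians near those of all genes (0.33 and 0.30). Of 22 adaptors and effectors, 4 rose and 1 fell in RMVs (median 0.41), and 5 rose and none fell in BMVs (0.52), beside 10.3% and 16.3% of all genes that rose. Plcg1, the phospholipase that docks on the activated receptor, rose in both (1.44 and 1.46), as did the adaptor gene Shc1 (1.01 and 2.29). Gab1 (1.23) and Crk (1.197), further adaptors, rose in RMVs, and Pik3ca (1.84), Stat5a (1.72) and Stat3 (1.49) in BMVs. Src, the kinase, fell in RMVs (-1.19) and had -0.89 in BMVs. Of 5 phosphatases and ubiquitin ligases that switch receptors off, only the ligase gene Cblb rose, by 1.19 and 1.26. Of 9 genes for heparan sulfate synthesis and its carriers, 2 rose in RMVs (median 0.46) and 3 in BMVs (0.20): agrin, Agrn, a basement membrane proteoglycan (1.92 and 2.45), syndecan 2, Sdc2 (1.34 and 1.15), and in BMVs the sulfotransferase gene Ndst2 (1.32).

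**Figure D4:**
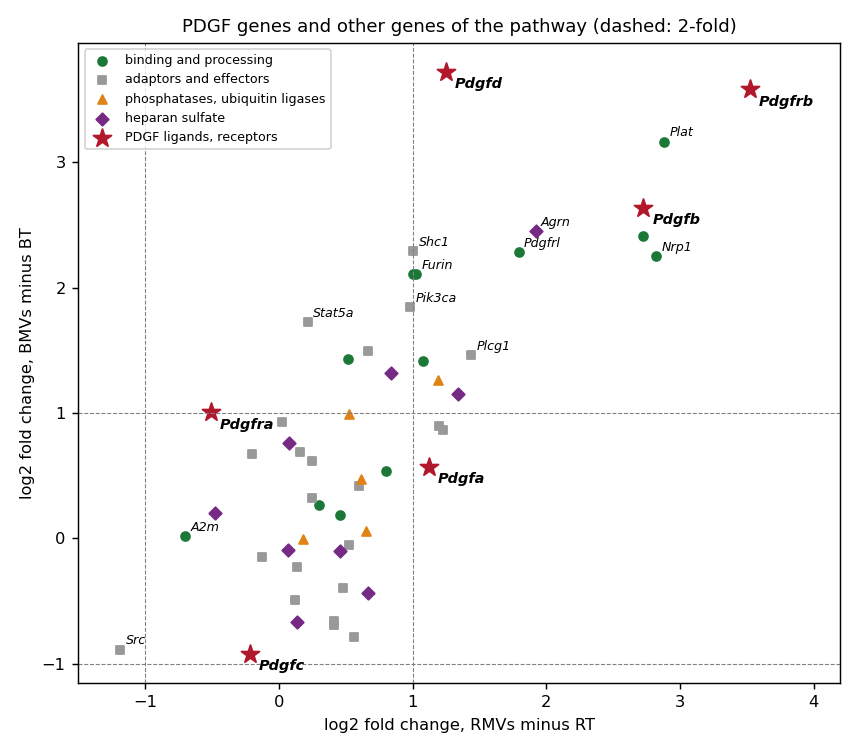
Log2 fold change in RMVs minus RT (horizontal axis) against BMVs minus BT (vertical axis) for the 6 PDGF genes (stars) and 4 lists of genes that bind, process or transmit PDGF signals (other symbols), with 2-fold as dashed lines. Pdgfb, Pdgfrb, Plat and Nrp1 lie far out on both axes, Pdgfd is far out on the brain axis (3.72) and Pdgfra is the only star with opposite signs (-0.51 and 1.01).

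Relatives of the family were read the same way. Among 6 genes of the other class III receptors and their ligands, 3 ligand genes rose in both organs, Il34 (2.76 in RMVs and 1.25 in BMVs) and Csf1 (1.06 and 2.20), both ligands of the macrophage receptor, and Kitlg (2.45 and 2.16), the ligand of Kit. The list medians were 0.65 and 0.71. Flt3, a receptor gene, fell in BMVs (-1.45) and had 0.10 in RMVs. Of 7 genes of the related VEGF branch, 4 rose in both organs (medians 2.22 and 2.34): the receptor genes Flt1 (3.43 and 3.68) and Flt4 (2.52 and 3.13) and the ligand genes Pgf (2.39 and 3.77) and Vegfc (2.22 and 2.34). Of 4 further genes of familial brain calcification, 2 were measured: Xpr1, a phosphate exporter, and Myorg, an astrocyte glycosidase in mouse. Slc20a2 and Jam2 were not among the genes tested, and the paper lists Jam2 as enriched in both microvessel groups. Neither Xpr1 nor Myorg reached 2-fold between microvessels and tissue. Myorg differed by 0.69 in RMVs (limma, adjusted p = 8.97e-09) and by -0.21 in BMVs (adjusted p = 0.0146). It was lower in RMVs than in BMVs (-1.33, adjusted p = 2.23e-14).

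In comparisons of RMVs with BMVs, 5.25% of all genes were lower in RMVs by the 2-fold and adjusted p rule. Of the 12 binding and processing genes, 2 were lower in RMVs, Lrp1 (-1.55), an endocytic receptor, and Nrp1 (-1.19). Against them, A2m was higher in RMVs (2.73, adjusted p = 5.93e-16), as were 5.72% of all genes. Lower in RMVs were also 3 of 22 effectors, Src (-1.23), Shc1 (-1.14) and Plcg1 (-1.10). Of 9 heparan sulfate genes, 1 was lower there, Agrn (-1.14). Of the 12 pericyte markers 3 were lower in RMVs, Anpep (-1.91), Vtn (-1.35) and Tbx18 (-1.05), with a list median of -0.62 beside -0.34 for Pdgfrb.

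By profile over the 24 arrays, which fall into the 4 groups, the genes most like each member were as follows. Pdgfb was closest to Abcb1a (Pearson r = 0.997), an efflux pump of the blood-brain barrier, Cd248 (0.997), a pericyte surface protein, and Lef1 (0.996), a transcription factor of Wnt signaling. Pdgfrb was closest to Cald1 (0.996), an actin-binding protein of contractile cells, Fn1 (0.996), fibronectin, and Cd93 (0.995), an endothelial receptor. Pdgfd was closest to Nid2 (0.982), a basement membrane protein, Axin2 (0.980), a Wnt target, and Selenon (0.979). Pdgfra was closest to Pld4 (0.984), an exonuclease of myeloid cells, Ptn (0.974), a secreted growth factor, and C1qa (0.974), a complement subunit. Pdgfa was closest to Prickle1 (0.985), Sorbs2 (0.983) and Klf7 (0.983), and Pdgfc to Scrg1 (0.969), Mt3 (0.968), a metallothionein of the brain, and Riiad1 (0.965). These values are descriptions, since the 24 points share the 4 group means.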

How the data were processed

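RNA of the 4 groups was hybridized to Rat Gene 2.0 ST arrays. The authors exported log2 signals from Affymetrix Expression Console 4.0, and these deposited log2 values, 1 column per array, were used as they stand. For the summarization, the normalization and the genome build of the array annotation, the settings were not given in the sources used here. RNA integrity numbers were above 8 in the study's methods. Of 36685 clusters, 18511 were listed with 1 gene symbol, 575 with several and 17599 with none, and 18394 of the first were matched to RefSeq by Entrez ID. The cluster with the highest mean stood for a gene, leaving 18166 genes, and each PDGF gene had 1 cluster. A linear model of all 24 arrays without a block was fitted with limma 3.58.1 (R 4.3.3), with Benjamini-Hochberg adjustment over all genes, and a gene was called at 2-fold and an adjusted p under 0.05. That model treats the arrays as independent, although the paper states that the retinal and brain vessels came from the same rats. The labels do not say whether a replicate number marks the same rat in each group. SDs are over 6 arrays. The precision is limited by the number of arrays, and the model was tested on simulated data. All 6 members are named, with the most changed genes of each further list, those against its direction and the 3 most similar profiles per member. The members and lists were chosen with earlier results of these data known. The alternatives were quantile normalization, median centring, means over clusters, a filter on low signal, fits of the compared groups only, a replicate block, a trended robust fit, a 1.5-fold threshold and leaving out each array. The search for upstream motifs used the RefSeq table of GRCr8.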

Additional observations from a re-analysis of the deposited data

Results flagged for a closer look

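The microvessel enrichment of 4 of the 6 genes differed between the retina and the brain by the test of the difference itself (limma, RMVs minus RT less BMVs minus BT, n = 6 arrays a group). At the same level, an adjusted p under 0.05 without a fold threshold, 59.9% of all genes differed, so the count is near that share. For Pdgfd the difference was -2.48 on the log2 scale (adjusted p = 9.34e-10), and it was -2.51 after quantile normalization as well as after median centring. For Pdgfra it was -1.52 (adjusted p = 7.85e-11), with -2.12 and -1.55 under those scalings, and the enrichment itself had opposite signs in the organs. For Pdgfa it was 0.55 (adjusted p = 0.000303), with 0.32 and 0.51. For Pdgfc it was 0.70 (adjusted p = 0.000509), with 0.26 and 0.67, of which the first did not pass the test (adjusted p = 0.183). In none of the 24 sets of 6 arrays, 1 for each gene and group, did a single array stand apart from the others by Dixon's criterion.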

How the results depend on the processing

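Scaling mattered most, because the deposited array medians differ between the groups. Relative to the array medians, Pdgfa in BMVs minus BT turned to -0.036 (adjusted p = 0.723). Under quantile normalization and under median centring alike, Pdgfa and Pdgfd lost and Pdgfra gained a call in RMVs minus RT, Pdgfra lost and Pdgfc gained one in BMVs minus BT, and Pdgfc gained one in RMVs minus BMVs. Pdgfb gained one in RT minus BT with median centring only. On the deposited scale, RMVs minus RT had 1873 calls upward and 172 downward among all genes tested, 933 and 918 after quantile normalization and 683 and 1928 after median centring. The corresponding counts in BMVs were 2969 and 1903, 1800 and 2444, and 1393 and 3873. The median of all genes moved from 0.33 to -0.15 and -0.32 in RMVs and from 0.30 to -0.15 and -0.31 in BMVs. A 1.5-fold threshold called 4 members in RMVs minus BMVs, adding Pdgfb and Pdgfc, 5 in BMVs minus BT, adding Pdgfc, 4 in RT minus BT, adding Pdgfb, and 3 for the difference of enrichment, adding Pdgfc. The share of all genes called at 1.5-fold was not computed, so these counts cannot be set against it. Leaving out 1 array gave 3 to 4 calls in BMVs minus BT and unchanged counts elsewhere (4 in RMVs minus RT, 2 in RMVs minus BMVs, 3 in RT minus BT and 2 for the difference of enrichment). Same-numbered arrays deviated together only weakly, with correlations from 0.04 to 0.15 in RMVs with RT, where 5 of 6 arrays matched their own number best, and from -0.09 to 0.12 in BMVs with BT, where 3 did. With the replicate number as a block, the calls were 4, 4, 2, 3 and 2 of the 6 genes, as without it, and Pdgfd in RT minus BT had an adjusted p of 0.0699. If the numbers do not mark rats, the block does not account for samples of the same rat. Of the values of single genes under an alternative, 904 kept their direction and side of the 2-fold and adjusted p rule, 10 lost and 7 gained a call and 3 changed sign: the Pdgfa value above, and the difference of enrichment of Pdgfrb, which passed no test, with 0.061 after quantile normalization and from -0.10 to 0.024 with 1 array left out (0.024 without RMV replicate 5). Most of these values came from leaving out 1 array, and several other alternatives leave the fold changes of the 6 genes as they are. All 7 gained calls came under quantile normalization or median centring. The 904 therefore say little about the effect of scaling. The order of levels was examined under both scalings after the data were seen. Depth cannot be read from arrays, and signal over background was not given.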
